A study of Mus musculus with 7 samples.

Results

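Collagen chain genes encode the polypeptides from which collagen fibres and sheets are built. On these mouse arrays they were taken as every non-control probe whose annotation gave a symbol of the form Col, a number, a and a number. That rule found 55 probes for 35 genes among 41174 probes, which stand for 34436 genes and unnamed probes. By type, 10 genes encode fibrillar chains (types I, II, III, V, XI and XXVII), 6 encode type IV chains of basement membranes and 19 encode other chains. Dim probes were left out unless 3 or more of the 7 arrays showed them well above background in the red or the green channel, which kept 34 of the 35 genes and 29737 genes and unnamed probes in all. Col19a1 did not pass it.

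RNA came from lymph nodes of 12-week-old female mice, and each channel of an array held the pooled tissue of 5 mice. The pancreatic lymph node (PLN) was labelled with the red dye Cy5 on all 7 arrays. Its partner in the green dye Cy3 was the mesenteric lymph node (MLN) of the gut on 4 arrays, from BALB/c, FVB, NOD and NOD.B10 mice, and the inguinal lymph node (ILN) on 3 arrays, from FVB, NOD and NOD.B10 mice. NOD is a strain prone to autoimmune diabetes, and NOD.B10 is a line derived from it with another major histocompatibility complex. However, the strain entry of the NOD.B10 arrays reads NOD, and their title and source name were followed. Each strain gave a single array per comparison, dyes were never swapped, and it is not stated whether the PLN RNA of a strain was the same on both of its arrays. The replicate spread is therefore a spread between strains, and a dye effect of a probe stays in both PLN comparisons and cancels in ILN over MLN.

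Collagen chains fold in threes into a triple helix. Fibrillar collagens form the cable-like fibres that give a tissue its tensile strength, type IV collagen forms the network of basement membranes under endothelium and epithelium, and the remaining types decorate fibres, link them to membranes or span the cell surface. In a lymph node, fibroblastic reticular cells ensheath a mesh of collagen fibres, along which lymphocytes move and through which small molecules are conducted, and the capsule is rich in fibrillar collagen.

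The genes of the α1 and α2 chains of type IV collagen lie head to head and are shown because their protein products join in a single trimer and their start regions are shared. Windows from 250 bases before to 50 bases after each annotated start were available from RefSeq (GRCm38.p6) for 28 of the 35 genes. The window of Col4a1 is chr8:11312777-11313076 on the minus strand, and that of Col4a2 is chr8:11312555-11312854 on the plus strand. Capitals mark the 78 bases that both windows hold, read on opposite strands.
Col4a1: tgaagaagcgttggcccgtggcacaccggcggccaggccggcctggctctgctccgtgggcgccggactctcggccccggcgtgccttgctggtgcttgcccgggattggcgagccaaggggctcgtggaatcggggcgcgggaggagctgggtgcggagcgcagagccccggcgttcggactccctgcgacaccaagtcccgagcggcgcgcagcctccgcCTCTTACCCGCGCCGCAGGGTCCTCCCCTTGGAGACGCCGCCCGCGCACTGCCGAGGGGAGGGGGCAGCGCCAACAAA
Col4a2: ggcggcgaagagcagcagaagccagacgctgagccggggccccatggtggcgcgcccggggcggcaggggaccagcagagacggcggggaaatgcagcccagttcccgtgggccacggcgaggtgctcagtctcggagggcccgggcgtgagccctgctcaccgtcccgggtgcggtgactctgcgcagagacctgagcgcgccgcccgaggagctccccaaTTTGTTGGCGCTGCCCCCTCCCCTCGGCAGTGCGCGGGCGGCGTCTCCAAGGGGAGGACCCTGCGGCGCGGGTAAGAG
The annotated starts lie 21 bases apart, and G and C make up 74.0% of the Col4a1 window and 73.7% of the Col4a2 window, against a median of 52.7% over all 32851 windows. On both strands, the letters GGGCGG were found 1 time in the Col4a1 window and 3 times in the Col4a2 window, and in 35.7% of all windows. CCAAT was found 1 time in each, and in 37.4% of all windows. TATAAA was found in neither, and in 13.6% of all windows. These are matches of letters only. The ratios of both genes are given with the basement membrane chains.

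A chain was counted as detected in a node where a probe of it was well above background on at least 4 of 7 arrays for PLN, 3 of 4 for MLN or 2 of 3 for ILN. By this measure 26 of the 35 genes were detected in PLN, 30 in MLN and 33 in ILN. In every node 25 genes were detected, and 22 were above background in every channel of every array. Of the 10 fibrillar chains, 9 were detected in PLN and 10 in MLN and ILN. Of the 6 type IV chains, 4, 4 and 5 were detected in PLN, MLN and ILN, and of the 19 other chains, 13, 16 and 18. The 9 genes not detected in PLN were Col4a3, Col4a5, Col8a2, Col9a1, Col10a1, Col11a1, Col12a1, Col19a1 and Col25a1. Col4a5, which encodes a chain of a type IV network found in kidney and skin, and Col19a1 were detected in no node. Signal also differed between the channels. By array, the median intensity of a spot ran from 68.0 to 105 units for PLN and from 86.1 to 199 units for its partner. Above background were 45.9% to 59.0% of probes in PLN against 50.7% to 88.9% in the other node. The part of that difference in the detection counts was not tested.

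Ratios are log2 of PLN over the other node after background correction and loess scaling within each array, and ILN over MLN was taken as PLN over MLN minus PLN over ILN. Against MLN, 0 of the 34 collagen genes kept passed an adjusted p of 0.05 (limma, Benjamini-Hochberg over all 29737 genes), where 0% of all genes passed. At an unadjusted limma p under 0.05 there were 7 of the 34, beside 4614 of all 29737. Against ILN, 2 of 34 passed, both higher in PLN, where 1.98% of all genes passed (1.51% higher and 0.467% lower). Here 11 of the 34 had an unadjusted p under 0.05, as had 6062 of all 29737. In ILN over MLN, 0 of 34 passed, where 0.256% of all genes passed. An unadjusted p under 0.05 was reached there by 4 of the 34 and by 1962 of all 29737. The genes that passed were Col14a1 and Col2a1. In a pooled tissue, fewer cells of a type and less RNA per cell cannot be told apart. A single sign on every MLN array was held by 12 of the 34 genes and by 8897 of all 29737. On every ILN array it was held by 15 of the 34 and by 13063 of all 29737. No test of these 34 genes as a set was made, and the p-values measure the spread between pools of different strains.

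**Figure D1:**
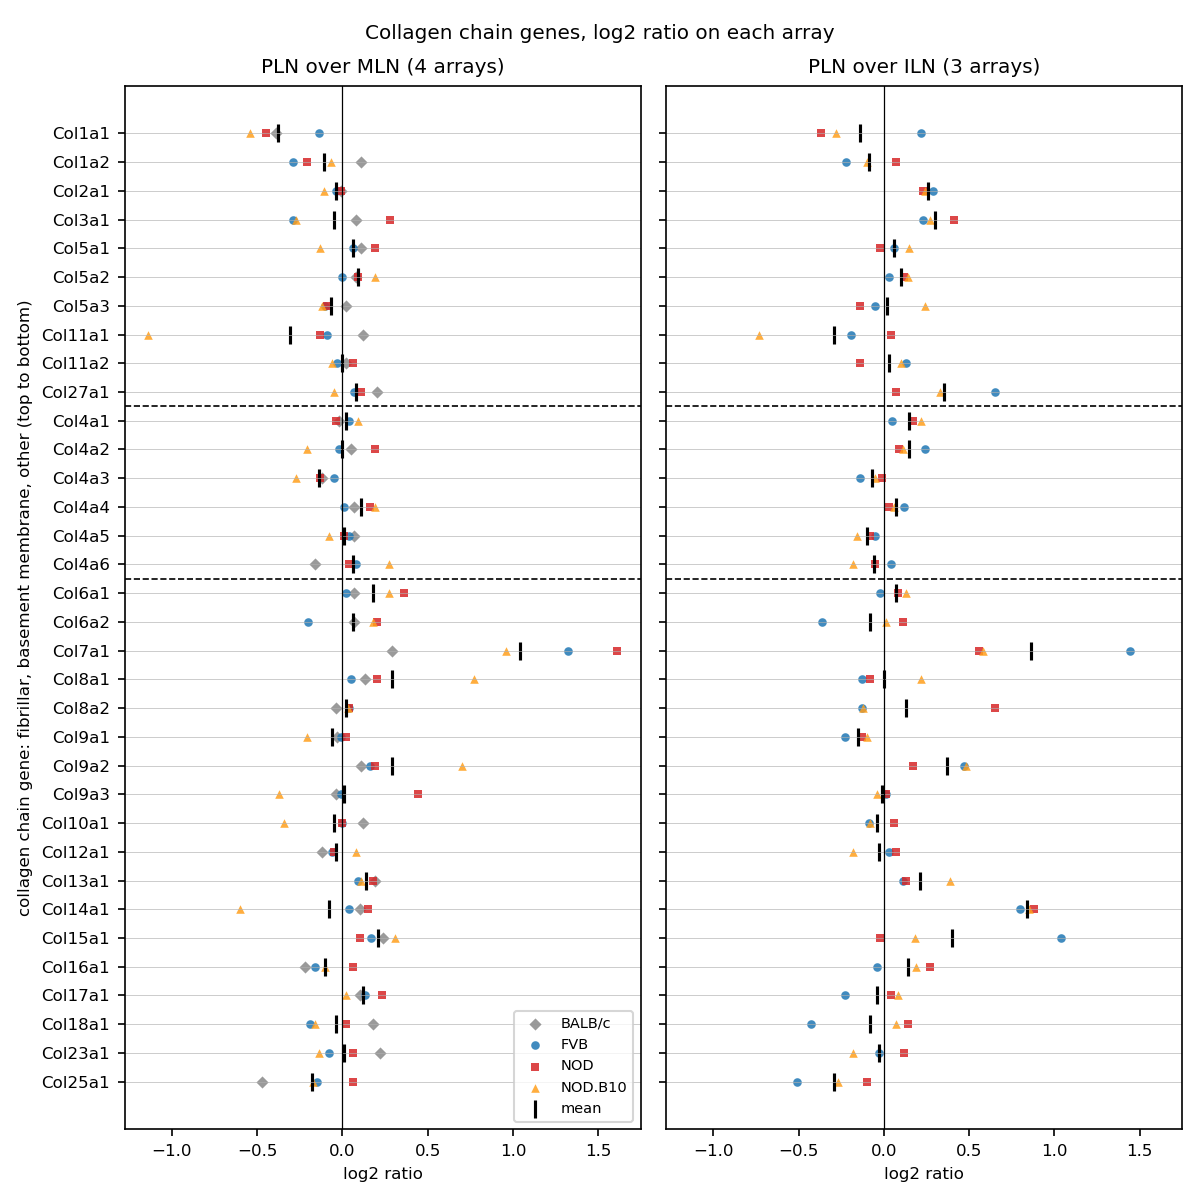
Log2 ratio of PLN over MLN (left) and of PLN over ILN (right) for the 34 kept genes on each array, marked by strain, with black bars at the mean of the arrays. Dashed lines part the fibrillar, basement membrane and other classes. Most genes lie near 0, while Col7a1 lies above 0 on all 7 arrays and Col14a1 lies at 0.80 to 0.88 on the ILN arrays.

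Among fibrillar chains the median ratio was -0.05 in PLN over MLN, 0.04 in PLN over ILN and -0.06 in ILN over MLN, against 0 for all genes in each. By array, the class median ranged from -0.11 (NOD.B10) to 0.08 (BALB/c) in PLN over MLN and from 0.06 (NOD) to 0.14 (NOD.B10) in PLN over ILN. All 10 fibrillar genes had a mean below 0 in ILN over MLN, from -0.35 to -0.01, as had 14954 of all 29737 genes. None of the 10 passed. A single sign in all 3 strains was held by 3 of the 10 and by 7562 of all 29737. With the arrays centred on their median and no loess, the fibrillar median of ILN over MLN was 0.30, so the direction depends on the scaling. It was -0.12 with a normexp offset of 0, and -0.14 with the scanner software's LogRatio and with the deposited values. With the scanner as a block and within scanner 2 it was -0.17. Scanner 1 read the BALB/c and NOD arrays of the MLN. Scanner 2 read the FVB and NOD.B10 arrays of the MLN and every ILN array, so scanner and partner node are partly confounded.

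Type I collagen is the main fibre of most connective tissue and joins the chains of Col1a1 and Col1a2. The log2 ratio of Col1a1 in PLN over MLN was -0.39 in BALB/c, -0.14 in FVB, -0.45 in NOD and -0.54 in NOD.B10. Against ILN it was 0.22 in FVB, -0.37 in NOD and -0.28 in NOD.B10. The MLN arrays were all below 0, and the FVB array of the ILN stood apart in sign. The mean in PLN over MLN was -0.38 ± 0.17 (SD, n = 4; SE of the fit 0.10, adjusted p = 0.181 by limma), with median centring it was 0.61, and the other 2 probes of the gene gave -0.04 and 0.15. Col1a2 gave 0.11, -0.29, -0.21 and -0.07 in BALB/c, FVB, NOD and NOD.B10 against MLN and -0.22, 0.07 and -0.10 in FVB, NOD and NOD.B10 against ILN, so neither group was on a single side of 0.

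Col3a1 encodes the chain of type III collagen, the reticular fibre of lymphoid organs. Its ratio in PLN over ILN was 0.23 in FVB, 0.41 in NOD and 0.27 in NOD.B10, all above 0. Against MLN it was 0.08, -0.29, 0.28 and -0.27 in BALB/c, FVB, NOD and NOD.B10, on both sides of 0. The mean in PLN over ILN was 0.30 ± 0.09 (SD, n = 3; SE of the fit 0.11), with an adjusted p of 0.172 by limma. A dimmer probe of the gene, above background in PLN on 0 of 7 arrays, had -0.07, 0.12 and 0.14 in FVB, NOD and NOD.B10. Its mean in PLN over ILN was 0.06. In ILN over MLN Col3a1 was -0.35, with -0.53, -0.13 and -0.54 in FVB, NOD and NOD.B10, and it was 0.57 with median centring.

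Type V collagen nucleates type I fibres. Col5a1 had a mean of 0.06 in both PLN comparisons, and Col5a2 had 0.09 in PLN over MLN and 0.10 in PLN over ILN, and neither passed. Col5a3 had -0.07 and 0.02, and Col11a2 had 0.00 and 0.03. Col27a1, a chain of cartilage fibres, had 0.65, 0.07 and 0.33 in FVB, NOD and NOD.B10 in PLN over ILN and a mean of 0.35 ± 0.29 (SD, n = 3; adjusted p = 0.114 by limma). Col11a1, a chain of cartilage fibres as well, had -1.14 on the NOD.B10 array of the MLN and -0.73 on that of the ILN, against -0.19 to 0.12 on the other 5 arrays. It was dim: its probe was above background in PLN on 1 of 7 arrays, and in ILN on 2 of 3. Its mean of -0.29 in PLN over ILN rests on the NOD.B10 array and is -0.08 without it, and its mean of -0.31 in PLN over MLN is -0.03 without that strain's array. Its other probe had means of 0.01 and 0.03.

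Col2a1 encodes the chain of type II collagen, the fibre of cartilage. In PLN over ILN the ratio was 0.29 in FVB, 0.23 in NOD and 0.24 in NOD.B10. Against MLN it was -0.01, -0.04, -0.01 and -0.11 in BALB/c, FVB, NOD and NOD.B10. The ILN arrays were all above the MLN arrays, and how many of all genes part in this way was not counted. The mean in PLN over ILN was 0.26 ± 0.03 (SD, n = 3; SE of the fit 0.05), which passed with an adjusted p of 0.0411 by limma. The call was kept in 4 of 18 alternative settings, over which the ratio ran from 0.08 with median centring to 0.53 with the LogRatio. At an unchanged 0.26 it missed the threshold with the scanner as a block (adjusted p = 0.0528 by limma) and within scanner 2 (adjusted p = 0.109). Its other probe had 0.15 in PLN over ILN. Of 7 measured chondrocyte and bone markers, 0 passed in any comparison, and their summed log2 level was 9.46 to 9.65 in PLN and 9.54 to 9.58 in ILN.

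Among basement membrane chains the median ratio was 0.02 in PLN over MLN, 0.00 in PLN over ILN and -0.02 in ILN over MLN, and no gene passed in any comparison. The α1 and α2 chains of Col4a1 and Col4a2 make up the common network of vessels. Col4a1 had -0.02, 0.04, -0.04 and 0.09 in BALB/c, FVB, NOD and NOD.B10 against MLN and 0.05, 0.17 and 0.22 in FVB, NOD and NOD.B10 against ILN. Col4a2 had 0.05, -0.02, 0.19 and -0.21 against MLN and 0.24, 0.09 and 0.11 against ILN in the same order. By their brightest probes, both lay on both sides of 0 against MLN and above 0 on every ILN array, where 13063 of 29737 genes kept a single sign. By these probes each had a mean of 0.15 in PLN over ILN, with an adjusted p of 0.200 for Col4a1 and 0.300 for Col4a2 by limma. The other Col4a2 probe, above background in every channel, gave -0.27, 0.15 and 0.03 in FVB, NOD and NOD.B10 against ILN, with a mean of -0.03. The other Col4a1 probe gave 0.00, 0.18 and 0.02, with a mean of 0.06.

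The chains of kidney and other special basement membranes are Col4a3 to Col4a6. Col4a4 had a mean of 0.11 in PLN over MLN and 0.07 in PLN over ILN, above 0 on all 7 arrays, and did not pass. Col4a6 had 0.06 and -0.06. Col4a3 was above background in PLN on no array, on 1 of 4 MLN arrays and on 2 of 3 ILN arrays, and no fold is given for it. Col4a5 was above background in PLN on no array, and none is given for it either. Of 12 partners of type IV collagen in basement membranes (laminins, nidogens and the like), 1 passed in PLN over ILN: Nid1, encoding nidogen that links laminin and type IV collagen, was 0.45 higher on the log2 scale (SE of the fit 0.08; adjusted p = 0.0274 by limma). None of these 12 passed in PLN over MLN or in ILN over MLN.

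Among the 18 other chains kept, the median was 0.02 in PLN over MLN, 0.00 in PLN over ILN and 0.02 in ILN over MLN. This class had both the highest and the lowest mean of the collagen genes in ILN over MLN, -0.92 for Col14a1 and 0.28 for Col8a1.

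Col14a1 encodes the chain of type XIV collagen, which binds to the surface of fibres and is made by fibroblasts. In PLN over ILN its ratio was 0.80 in FVB, 0.88 in NOD and 0.85 in NOD.B10. Per channel, the log2 signal was 9.16, 8.67 and 8.35 in PLN and 8.37, 7.79 and 7.50 in ILN, in the same order of strains. These levels are built from the same ratios and are no separate observation. Against MLN the ratio was 0.10 in BALB/c, 0.04 in FVB, 0.15 in NOD and -0.60 in NOD.B10, and the NOD.B10 array lay apart. The mean in PLN over ILN was 0.84 ± 0.04 (SD, n = 3; SE of the fit 0.13, adjusted p = 0.0169 by limma), while in PLN over MLN it was -0.08 ± 0.35 (SD, n = 4; adjusted p = 0.727). In ILN over MLN it was -0.92 (SE of the fit 0.17), with -0.76, -0.73 and -1.45 in FVB, NOD and NOD.B10, and did not pass (adjusted p = 0.0885 by limma).

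The PLN over ILN call of Col14a1 was kept in 11 of 18 alternative settings. With any 1 of the 3 ILN arrays left out it missed the threshold at a near equal ratio: 0.86 without FVB (adjusted p = 0.0507 by limma), 0.82 without NOD (0.0524) and 0.84 without NOD.B10 (0.188). Without the NOD.B10 MLN array, ILN over MLN was -0.75 and passed (adjusted p = 0.0148 by limma), and PLN over MLN was 0.09. With median centring PLN over MLN was 0.79, and ILN over MLN was -0.14. A dimmer probe of the gene, above background in PLN on 2 of 7 arrays, had 0.06 in PLN over MLN and 0.04 in PLN over ILN. Markers of other cell types were read beside Col14a1. Of 14 kept of 15 markers of fibroblastic stroma, 5 passed in PLN over ILN, all higher in PLN. Among them were Lum (2.69, SE 0.13, adjusted p = 0.000199 by limma), Madcam1 (1.69) and Fn1 (1.19). Madcam1, a mucosal addressin, is not particular to fibroblasts. Of the 14, 8 were above 0 and 6 below, down to -0.43, with an array median of -0.05 in FVB, 0.25 in NOD and 0.41 in NOD.B10. In ILN over MLN, 2 passed, Lum at -2.32 and Dcn at -1.07, both lower in ILN, while 7 were above 0 and 7 below, up to 0.84. The summed log2 level of the markers was 15.1 to 15.5 in PLN and 15.1 to 15.3 in ILN. Of 6 kept markers of lymphatic endothelium, 3 passed in PLN over ILN, all higher in PLN: Lyve1 (1.11), Stab2 (0.81) and Reln (0.60), and Lyve1 passed at -1.35 in ILN over MLN. Their summed log2 level was 10.3 to 10.7 in PLN and 9.73 to 9.91 in ILN. Of 12 markers of white adipose tissue, 0 passed, 11 were above 0 in PLN over ILN (median 0.69; -0.27 in FVB, 1.16 in NOD and 1.33 in NOD.B10) and 11 were below 0 in ILN over MLN (median -0.71). Their summed log2 level was 13.4 to 13.8 in PLN and 12.2 to 13.9 in ILN. Smooth muscle and pericyte markers (11) had 2 that passed in PLN over ILN, both lower in PLN: Tagln (-0.93) and Mylk (-0.50). In that list 4 were above 0 and 7 below. Blood endothelium (12 markers) had 1 that passed, Emcn, lower in PLN at -0.42, with 9 above 0 and 3 below. Emcn also passed at 0.57 in ILN over MLN. The part of any of these cells in the result was not tested.

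**Figure D2:**
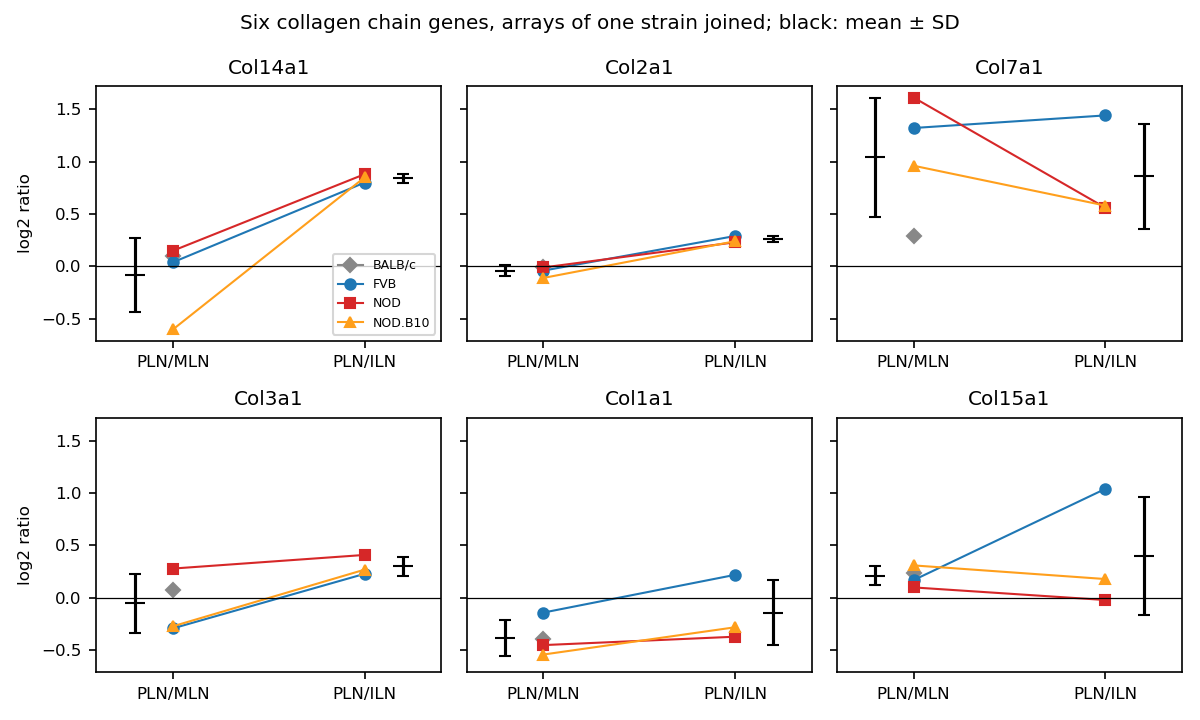
Log2 ratio of PLN over MLN and of PLN over ILN for 6 collagen chain genes, with arrays of a strain joined by a line and black marks at the mean ± SD. Col14a1 and Col2a1 sit higher on the ILN arrays than on the MLN arrays, and Col7a1 sits above 0 on all 7 arrays with BALB/c lowest at 0.29.

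Col7a1 encodes the chain of type VII collagen, the anchoring fibril that fixes epithelium to the tissue below. In PLN over MLN its ratio was 0.29 in BALB/c, 1.32 in FVB, 1.61 in NOD and 0.96 in NOD.B10. Against ILN it was 1.44 in FVB, 0.56 in NOD and 0.58 in NOD.B10. It was above 0 on all 7 arrays. The mean was 1.04 ± 0.57 (SD, n = 4; SE of the fit 0.21) in PLN over MLN and 0.86 ± 0.50 (SD, n = 3; SE of the fit 0.24) in PLN over ILN, and neither passed (adjusted p = 0.125 and 0.113 by limma). Without BALB/c, PLN over MLN was 1.30 with an adjusted p of 0.0571. Markers of pancreatic acinar cells were read beside it. Their median ratio over 12 genes was 0.17, 3.09, 4.94 and 4.75 on the BALB/c, FVB, NOD and NOD.B10 arrays of the MLN. On the FVB, NOD and NOD.B10 arrays of the ILN the median of these markers was 4.76, 3.47 and 4.24. Their summed log2 level was 17.9 to 19.1 in PLN and 13.9 to 14.5 in ILN on the ILN arrays, 18.01 to 19.33 in PLN and 13.9 to 18.1 in MLN on the MLN arrays, and 11 of 12 passed in PLN over ILN. For the 10 markers of skin and mammary epithelium the median was -0.04 to 0.14 against MLN and -0.11 to -0.01 against ILN, and 0 of them passed. Against MLN, 9 of the 10 were above 0 and their summed log2 level was 10.4 to 11.5 in PLN and 10.01 to 10.41 in MLN. The highest were Krt18 at 1.83 and Krt8 at 1.11, keratins of simple epithelium, singled out after their values were seen. Over all 10 the median of the means against MLN was 0.03, and the lowest was -0.04. Against ILN, 3 of the 10 were above 0 and 7 below, down to -0.76. Their summed level there was 10.2 to 10.9 in PLN and 10.1 to 10.8 in ILN. The part of either in the Col7a1 ratio was not tested.

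Type VI collagen makes beaded filaments around cells. Col6a1 had a mean of 0.18 in PLN over MLN and 0.07 in PLN over ILN, and Col6a2 had 0.06 and -0.08. Col15a1 and Col18a1 encode chains beneath vessels, the latter holding the endostatin fragment. Col15a1 was 0.24, 0.17, 0.10 and 0.31 in BALB/c, FVB, NOD and NOD.B10 against MLN and 1.04, -0.02 and 0.18 in FVB, NOD and NOD.B10 against ILN, so its mean of 0.40 in PLN over ILN rests on the FVB array and is 0.08 without it. Col18a1 lay on both sides of 0 in both comparisons, with means of -0.04 and -0.08. Its other probe, above background in every channel as well, had means of 0.07 and 0.28. On the FVB array of the ILN that probe gave 0.77, where the brightest gave -0.43.

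Further chains had large means or were dim. Col9a2, of a type that sits on cartilage fibres, had 0.11, 0.16, 0.19 and 0.70 in BALB/c, FVB, NOD and NOD.B10 against MLN, and 0.47, 0.17 and 0.48 in FVB, NOD and NOD.B10 against ILN. It was above 0 on all 7 arrays, at 0.29 and 0.37 on average, and passed in neither, though MLN was above background on only 1 of its 4 arrays, so that the ratio over MLN is set against a dim channel. The mean reached 2.21 in PLN over MLN with the LogRatio and 1.33 in PLN over ILN with an offset of 0, and was 0.15 in PLN over MLN without NOD.B10. Col8a1, of vessel walls, had a mean of 0.29 in PLN over MLN, of which the NOD.B10 array gave 0.77, and 0.00 in PLN over ILN. Col25a1, a chain of neurons that spans the membrane, had -0.18 and -0.29, the latter being -0.18 without FVB, and was above background in PLN on 1 of 7 arrays. Col9a1 had -0.06 and -0.15 and passed in neither comparison. PLN was not well above background on its ILN arrays, and the computed bound of 1.09-fold below ILN is no tested difference. For Col11a1 and Col25a1, with PLN in the same state, the bounds were 1.21-fold and 1.22-fold. Col16a1, which sits on fibres like Col14a1, had -0.10 in PLN over MLN and 0.14 in PLN over ILN. The other 7 kept chains of this class had means of -0.05 to 0.14 in PLN over MLN and -0.04 to 0.21 in PLN over ILN.

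The genes that make, cut and bind collagen were read from 5 lists. Of 19 measured genes that fold and modify the chains, 1 passed in PLN over ILN: Crtap, part of the complex that hydroxylates proline, was 0.30 higher on the log2 scale (SE of the fit 0.06; adjusted p = 0.0485 by limma), and the median of the list was 0.15 against 0 for all genes. Of 11 genes of propeptide cleavage and crosslinking, 11 of collagen breakdown and 6 collagen receptors, 0 passed in any comparison. In PLN over MLN and in ILN over MLN 0 of the 19 passed as well.

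**Figure D3:**
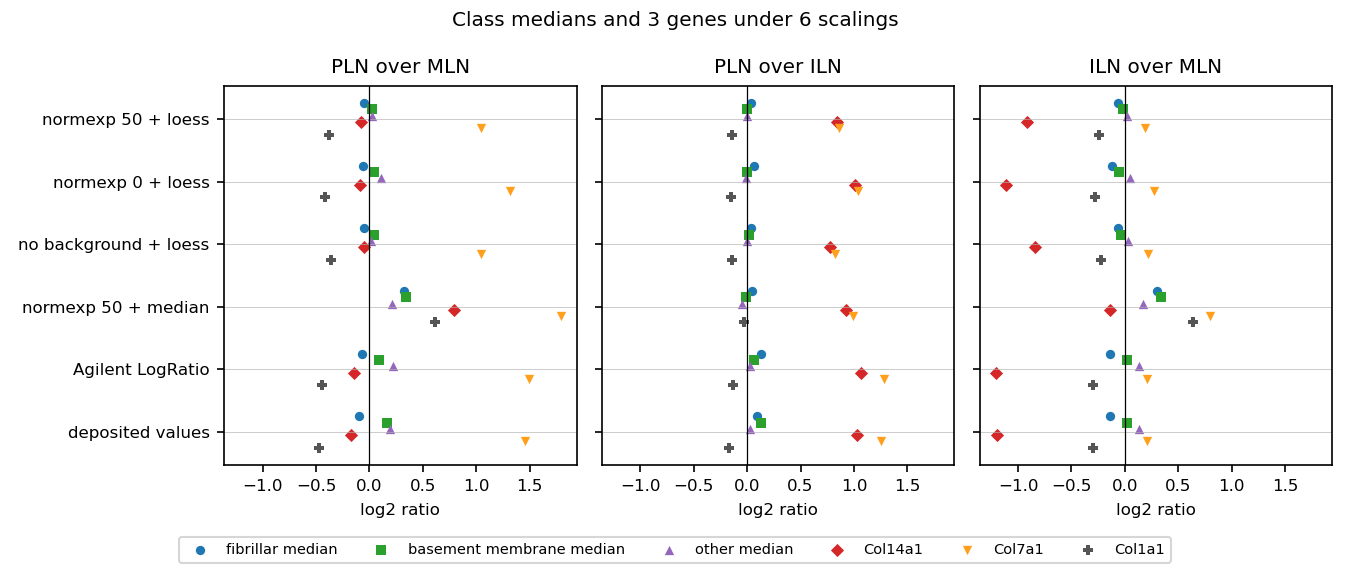
Log2 ratio of the class medians and of Col14a1, Col7a1 and Col1a1 in each comparison under 6 scalings of the arrays (normexp with an offset of 50 or 0 or no background correction, each with loess, median centring, the LogRatio of the scanner software, and the deposited values). With median centring the class medians of PLN over MLN and ILN over MLN are above 0 and Col1a1 is at 0.61 in PLN over MLN, while with the other scalings it is below 0.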

How the data were processed

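Two-colour Agilent arrays were analysed. Per the file headers, spots were read with Agilent Feature Extraction 8.5.1.1, and the mean and background signals are intensity values that the authors deposited. The LogRatio that the authors deposited is a log10 value, red divided by green, and the deposited value table is in log2, matching the processed signals at correlations of at least 0.999892 per array. Marks for spots above background are 0 or 1 in the deposited files. The table's column medians were 0.0073 to 0.0935, and the sources used here do not say how it was centred.

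Background was corrected by normexp (offset 50) and arrays were scaled by loess in limma 3.58.1 (R 4.3.3), with outlier and control spots at weight 0. Spots of a probe were averaged, and a gene was represented by its brightest probe on average. Probes were named by RefSeq accession (22072) or by description (2271). A linear model with a coefficient per comparison was fitted to all 7 arrays (5 residual and 3.85 prior degrees of freedom), two-sided, adjusted by Benjamini-Hochberg over 29737 genes. Dye bias may affect the log2 levels per channel, taken after Aquantile. For a probe that no array of a group showed above background, a bound was computed against the lowest signal above background, as a mean of log2 values.

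Named genes were those called, the 2 detected genes per class and direction with the largest mean, and fixed matrix genes. Col6a3 of that fixed list was not found by the rule. The members, lists and rule were chosen with earlier results of these data known. Alternatives covered the background correction, the scaling, the dim-probe filter, the probe rule, array weights, scanner and strain blocks, and leaving out each array. The fit was tested on simulated data.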

Additional observations from a re-analysis of the deposited data

Results flagged for a closer look

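In groups of 4 to 10 arrays, an array lying far from the others was marked by Dixon's ratio, which chance marks in about 1 of 20 groups. Of 27 groups of 4 MLN arrays, 2 were marked, both at NOD.B10. Col14a1 was at -0.60 there, against 0.04 to 0.15 on the other arrays, and Col9a2 was at 0.70, against 0.11 to 0.19, with MLN above background on 1 of the 4 arrays. That array also had the lowest weight, 0.415, when limma weighted the arrays. The strain entry of these arrays reads NOD, and the reason for the distance was not tested. The groups of 3 ILN arrays are too small for this rule.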

How the results depend on the processing

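In PLN over MLN no alternative called a collagen gene. In PLN over ILN the count of 2 became 0 with normexp at offset 0, median centring, the scanner software's LogRatio or the deposited values. It became 1 without background correction, with the median over probes, with the scanner as a block and within scanner 2. Array weights gave 13, and leaving out single arrays gave 0 to 3. In ILN over MLN the count of 0 became 2 with array weights and 0 to 1 without single arrays. The weights gave the NOD.B10 ILN array 3.31 and the NOD.B10 MLN array 0.415, the lowest of all 7. Over all genes the counts ranged from 0 to 71 in PLN over MLN, from 0 to 8847 in PLN over ILN and from 0 to 462 in ILN over MLN.

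Medians of PLN over MLN moved as follows. With offset 0 the basement membrane median was 0.04 and the median of other chains 0.11. Without background correction the former was 0.04. Median centring gave 0.32, 0.34 and 0.21 for fibrillar, basement membrane and other chains. The LogRatio gave 0.09 and 0.22, the deposited values 0.16 and 0.19, and the strictest filter 0.04 and 0.12 for basement membrane and other chains. The median over probes, the scanner block and scanner 2 alone gave 0.03 for basement membrane. In PLN over ILN the fibrillar median was 0.13, 0.09 and 0.12 with the LogRatio, the deposited values and array weights, and the basement membrane median was 0.06, 0.13 and 0.11 with the LogRatio, the deposited values and the strictest filter, and 0.07 with types VII, XV and XVIII added. In ILN over MLN median centring gave 0.30, 0.34 and 0.17, where it moved the median of all genes to 0.13. The median of other chains was 0.13 with the LogRatio and the deposited values and -0.01 with the median over probes. It was -0.02 with the scanner block and within scanner 2. The causes were not tested.

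Without single arrays, the medians of fibrillar, basement membrane and other chains ranged from -0.07 to 0.00, 0.01 to 0.03 and 0.00 to 0.08 in PLN over MLN, from 0.01 to 0.10, 0.00 to 0.04 and -0.04 to 0.07 in PLN over ILN, and from -0.14 to -0.06, -0.03 to -0.01 and 0.00 to 0.08 in ILN over MLN. With strain as a replicate block, pairing FVB, NOD and NOD.B10, ILN over MLN called 0 collagen genes and 26 of all genes, and Col14a1 was -0.98. In the deposited values Col4a3 was at 0.36 in PLN over MLN and 0.44 in PLN over ILN, against -0.14 and -0.07. Each group of arrays has 3 or 4 members, which limits the precision.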

Other observations

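Further collagen probes were named only through their accession and lie outside the rule. Col6a6 had mean log2 ratios of -0.03 in both PLN comparisons and was above background in PLN on 1 of 7 arrays. Col26a1 had 0.01 in PLN over MLN and 0.04 in PLN over ILN and was above background on all 7 arrays. A further probe of Col4a4 did not pass the filter on dim probes.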
